A study of Mus musculus with 38 samples.

Results

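The genes described here encode 9 apolipoproteins (Apoa1, Apoa2, Apoa4, Apoa5, Apob, Apoc1, Apoc2, Apoc3 and Apoe) and the microsomal triglyceride transfer protein (Mttp). They were chosen by gene symbol, and all 10 were found among the 21954 genes of the deposited expected count table. Messenger RNA was measured by RNA-seq in livers of female, wild-type C57BL/6 mice, in 38 libraries that fall into 13 groups of diet and time. Mice fed ad libitum (AL) were sampled at 0 h (3 libraries), 6 h (2), 14 h (3) and 22 h (3). Mice under calorie restriction (CR) were sampled at 0 h (2), 6 h (3), 14 h (3) and 22 h (4). Fasted mice (F) were sampled at 6, 14 and 22 h, with 3 libraries each. The remaining CR groups, with 3 libraries each and taken at ZT18 (circadian time), differ in whether the meal was given (fed) or withheld (missed meal). The event that starts the count of hours is not given in the labels, nor is it stated how strong the restriction was or whether the replicates of a group are separate animals. P-values therefore measure the spread between these libraries, which may be technical. The labelled age runs from 5 to 44 months, and no 2 libraries share an age. It rises by 1 month or more from each library to the next in the order of the labels, and the ages of the groups do not overlap (5 to 7 months in AL at 0 h, 42 to 44 months after the missed meal). Whether the labelled ages are the true ages of the mice cannot be told from the labels. As labelled, age and group cannot be told apart.

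The liver exports triglyceride in very low density lipoprotein (VLDL), a lipid droplet wrapped in phospholipid and protein. Each particle is built around a single molecule of apolipoprotein B, which receives its lipid in the endoplasmic reticulum from microsomal triglyceride transfer protein, and without that transfer apolipoprotein B is degraded. Smaller, exchangeable apolipoproteins then ride on the particle and on HDL: apolipoproteins C-II and A-V promote lipoprotein lipase, C-I and C-III restrain lipolysis and uptake, and apolipoprotein E is a ligand of the LDL receptor family. During fasting, fatty acids from adipose tissue reach the liver, where they are oxidised, stored or exported in VLDL.

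Libraries held 17131292 to 30152277 counts, and all 10 genes passed the filter on low counts. Hepatocyte markers (7 of 8 in the table, Alb and Ttr among them) summed to 64030 to 161700 CPM (counts scaled to library size with edgeR's cpm function after TMM). The intestinal markers Lct and Sis were at 0 in 34 and 35 of the 38 libraries, and Vil1 reached at most 1.434 CPM, while Fabp2, also an intestinal marker, ran from 12.17 to 158.7 CPM. In 5 libraries the 1000 most variable genes correlated best with the mean of a group of another diet, with the fed and missed-meal groups counted as CR. They were AL 0 h replicate 3 (nearest to CR 0 h), CR 6 h replicate 3, CR 14 h replicate 3 and CR 22 h replicate 3 (each nearest to AL of the same time) and CR fed replicate 3 (nearest to AL 0 h). A difference of meal was not counted, so CR 6 h replicate 1, nearest to the fed CR group (r 0.922, own group 0.856), is not among them. Results without these 5 are given where they change a call. Across all genes, fold changes between fasted and AL livers rose with transcript length (Spearman's rho across genes 0.192 at 6 h, 0.403 at 14 h and 0.389 at 22 h), and this trend is taken up below, since the 10 transcripts run from 518 bases (Apoa2) to 13934 bases (Apob). In bulk tissue, fewer hepatocytes and less RNA per hepatocyte cannot be told apart.

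The genes lie in 2 clusters and 3 single loci (GRCm38, GENCODE annotation). Apoa1 (chr9:46228580-46230466, plus strand), Apoc3 (chr9:46232933-46235636, minus strand), Apoa4 (chr9:46240696-46243459, plus strand) and Apoa5 (chr9:46268633-46271919, plus strand) share 43.3 kb of chromosome 9. Apoe (chr7:19696109-19699188), Apoc1 (chr7:19689481-19692660) and Apoc2 (chr7:19671579-19677941) share 27.6 kb of chromosome 7 with Apoc4, all on the minus strand. Apob is at chr12:7977648-8016835 (plus strand), Mttp at chr3:138089854-138144968 (minus strand) and Apoa2 at chr1:171225054-171226379 (plus strand). The libraries are non-directional, so reads of Apoa4, Apoa5 and Mttp cannot be told from reads of genes annotated on the opposite strand within them, which for Mttp include Trmt10a. Reads of Apoc2 may be shared with Gm44805, a gene model that spans Apoc2 and Apoc4.

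Upstream sequence is shown for 4 genes on the plus strand: Apob and Apoa4, which rose in fasted livers, and Apoa1 and Apoa5, the neighbours of Apoa4 on the same strand. The sequences are from RefSeq (GRCm38.p6), run 5′ to 3′ and end at the base before the first annotated start, at chr9:46240594-46240695 for Apoa4, chr9:46228380-46228579 for Apoa1, chr9:46268358-46268607 for Apoa5 and chr12:7977427-7977647 for Apob. Capitals mark CAAAGTTCA in Apoa4, a variant of the HNF4A motif, and the TATA box letters TATAAA in Apoa5 and Apob; both motifs were added after the sequences were read.
Apoa4: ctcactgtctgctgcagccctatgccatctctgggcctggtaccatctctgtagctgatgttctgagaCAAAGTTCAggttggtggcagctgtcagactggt
Apoa1: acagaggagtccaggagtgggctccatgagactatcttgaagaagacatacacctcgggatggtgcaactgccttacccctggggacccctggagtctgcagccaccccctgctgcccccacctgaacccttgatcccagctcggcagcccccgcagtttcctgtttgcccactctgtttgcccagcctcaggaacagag
Apoa5: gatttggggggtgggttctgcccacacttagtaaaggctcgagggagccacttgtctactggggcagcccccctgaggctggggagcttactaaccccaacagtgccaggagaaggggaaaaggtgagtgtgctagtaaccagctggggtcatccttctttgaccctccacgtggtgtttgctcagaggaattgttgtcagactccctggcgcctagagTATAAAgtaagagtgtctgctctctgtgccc
Apob: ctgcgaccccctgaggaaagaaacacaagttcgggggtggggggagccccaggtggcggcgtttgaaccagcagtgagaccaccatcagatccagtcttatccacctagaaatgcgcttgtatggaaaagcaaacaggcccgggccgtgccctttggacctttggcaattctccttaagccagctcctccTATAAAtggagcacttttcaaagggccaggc
RefSeq promoter windows of 300 bases (250 before and 50 after a start) were found for 8 of the 10 genes, in 12 windows. On either strand, CAAAGTTCA was found in 0.39% of all 32851 windows of the mouse table and, among these genes, in that of Apoa4. TATAAA was found in 13.6% of all windows and in windows of Apoa2, Apoa5, Apob and Apoe. The nuclear receptor core site AGGTCA (16.3% of all windows) was found in Apoa2 and Apoc2, the forkhead motif TGTTTAC (3.65%) in Apoa2 and Apoe. TGACGT (7.51%), the core bound by CREB family factors, was found in Mttp. CAAAGTCCA (0.475% of all windows), TTGCGCAA (0.183%) and ATCACCCCA (0.28%) were found in none of the 12 windows. A match is a run of letters and was not tested as a binding site.

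Per length, Apoe, the HDL proteins Apoa1 and Apoa2, Apoc1 and Apoc3 were the most abundant of the 10 and Mttp the least. On the scale of TPM as rescaled by the authors, the median over the 38 libraries was 25030 for Apoe, 20700 for Apoa2, 10010 for Apoc1, 8746 for Apoa1 and 6147 for Apoc3. It was 995.6 for Apoa5, 615.2 for Apob, 414.1 for Apoc2, 247.9 for Apoa4 and 117.1 for Mttp. Apoe ranked first by group mean in AL livers at 0 h and Mttp last, but in fasted livers at 22 h Apoa2 (21460) stood above Apoe (20910), and Apoa4 (2744) ranked sixth, above Apoa5, Apob, Apoc2 and Mttp. Together the 10 genes took 2.997% ± 0.4029 (SD, n = 3) of all counts in CR livers at 6 h, the lowest group mean, and 4.363% ± 0.6087 (SD, n = 3) in fasted livers at 22 h, the highest. Variation between groups differed by gene: the highest group mean CPM was 28.08 times the lowest for Apoa4, 3.873 times for Apoc2, 3.022 times for Apoa1, 2.651 times for Mttp and 1.592 times for Apoe. When the 13 groups were ordered by mean CPM, libraries of neighbouring groups overlapped in all 12 neighbouring pairs for 8 genes, with 1 exception each for the other 2. For Apob fasted livers at 14 h (lowest 3468 CPM) were separate from the next group, CR at 0 h (highest 3447 CPM). For Apoc2 livers after the missed meal (lowest 242.2 CPM) were separate from CR at 0 h (highest 231.2 CPM). The groups were ordered by these same values, so neighbours can be expected to overlap for most genes. The share of all genes was not counted, so this describes the order and sets no gene of the 10 apart.

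**Figure D1:**
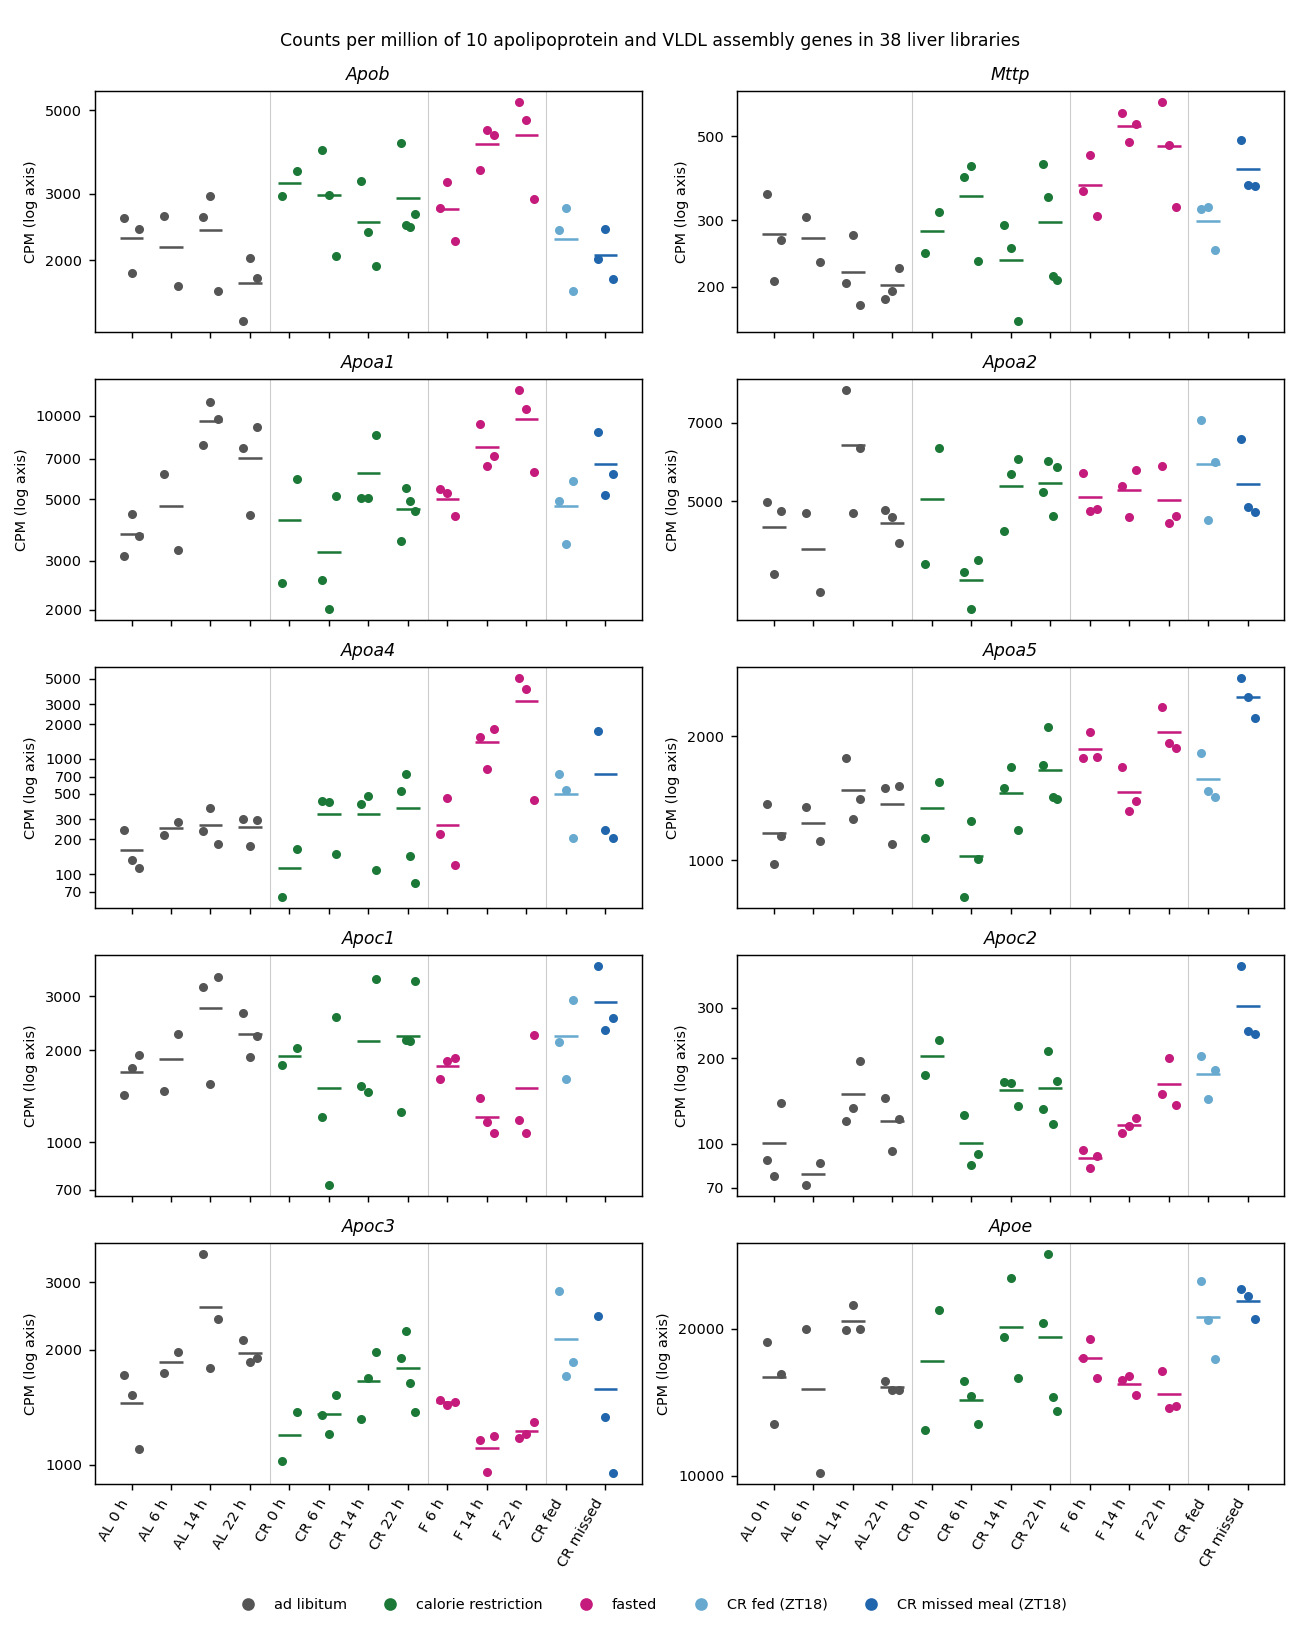
CPM (y axis, log scale, TMM-scaled) of each gene in the 13 groups of diet and time. Points are libraries and lines are group means; Apoa4 reaches 5064 CPM in fasted livers at 22 h against at most 302.9 CPM in AL livers of that time, while Apoe stays between 10120 and 28440 CPM.

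By the main test, fasted livers had higher Mttp, Apob and Apoa4 than AL livers at 14 and 22 h. The calls of Apob, and those of Apoc1 and Apoc3 at 14 h, were lost with the trend with transcript length removed, as given below. With edgeR's quasi-likelihood test and Benjamini-Hochberg adjustment over 13786 genes (threshold 0.05), 0 of the 10 genes were called at 6 h, where 1.2% of all genes tested were called higher and 1.13% lower. At 6 h 1 of the 10 (Apoa5) had an unadjusted p under 0.05, and DESeq2 and limma also called 0. At 14 h Apoa4, Apob and Mttp were called higher and Apoc1 and Apoc3 lower, against 11.8% of all genes higher and 12.7% lower. At 22 h Apoa4, Apob and Mttp were called higher and 0 lower, against 6.06% and 5.4%. The mean over the 3 times called 4 genes higher (Apoa4, Apoa5, Apob and Mttp) and 2 lower (Apoc1 and Apoc3), against 16.8% and 17.9% of all genes. The median log2 fold change of the 10 genes was -0.30 at 14 h and 0.45 at 22 h, beside medians of -0.04 and -0.03 over all genes. Endothelial markers moved with these comparisons: 6 of 8 were called higher in fasted livers at 14 h, 1 of 8 at 22 h and 5 of 8 over the 3 times (sums of 176.2 to 290.1 CPM in fasted and 69.18 to 225.2 CPM in AL libraries of all times). Of 4 pancreatic markers, 2 were called higher at 14 h, with sums of at most 13.87 CPM in fasted and 0.223 CPM in AL livers and a median of 0 in both, again over all times. Of 7 hepatocyte markers tested, 1 was called higher and 1 lower at 14 h, with a median log2 fold change of -0.49. At 22 h 0 were higher and 1 lower (median -0.09), and over the 3 times 1 was higher and 1 lower (median -0.19). The part of these cells in the results was not tested.

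Mttp, whose product loads lipid onto apolipoprotein B, was higher in fasted livers at 14 and 22 h. In AL libraries it stood at 204, 273.7 and 178.5 CPM at 14 h and at 185.3, 194.5 and 224.2 CPM at 22 h. In fasted libraries it stood at 577.9, 484.7 and 538.2 CPM at 14 h and at 617.9, 474.7 and 324.1 CPM at 22 h. Every fasted library was above every AL library at both times. With so few libraries per group such a separation can arise by chance. The share of all genes without overlap was not counted, so it is given here and below as a description. Mttp rose by 1.29 ± 0.28 (log2 fold change ± SE, adjusted p = 0.00148, edgeR quasi-likelihood test) at 14 h and by 1.23 ± 0.28 (adjusted p = 0.00506) at 22 h, that is 2.439-fold and 2.346-fold. At 6 h the AL libraries (306.5 and 231.7 CPM) lay below the fasted ones (358.1, 447.4 and 308.2 CPM), with a log2 fold change of 0.46 ± 0.31 that was not called (adjusted p = 0.545 by edgeR). The 22 h call was lost without F 22 h replicate 1 (adjusted p = 0.0528), and the 14 h call was kept in every alternative run.

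Apob, the structural protein of VLDL, stood at 2600, 2964 and 1654 CPM in AL and at 3468, 4426 and 4306 CPM in fasted livers at 14 h. At 22 h it stood at 1380, 2031 and 1797 CPM in AL and at 5261, 4709 and 2904 CPM in fasted livers. The groups did not overlap at either time. Apob rose by 0.76 ± 0.28 (adjusted p = 0.047 by edgeR's quasi-likelihood test) at 14 h and by 1.31 ± 0.28 (adjusted p = 0.00353) at 22 h. Apob has the longest transcript of the 10, and within groups its level followed each library's trend with transcript length (Pearson r 0.69 over the 38 libraries, a description). With that trend removed, Apob moved to 0.30 (adjusted p = 0.484) at 14 h and to 0.71 (adjusted p = 0.0964) at 22 h, and on rescaled TPM limma gave -0.24 (adjusted p = 0.569) at 14 h and 0.76 (adjusted p = 0.0793) at 22 h. The 14 h call was also lost without the filter on low counts and without AL 14 h replicate 1 or 3 or any 1 of the 3 fasted libraries. Over the 3 times Apob rose by 0.80 ± 0.17 (adjusted p = 0.000511 by edgeR), against 0.39 (adjusted p = 0.0643) with the trend removed and 0.13 (adjusted p = 0.586) by limma on rescaled TPM. What part of the rise of Apob is shared with other long transcripts was not tested.

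Apoa4, an exchangeable apolipoprotein of chylomicrons, VLDL and HDL that in the mouse is made in gut and liver, moved most. Its CPM in AL livers was 241.3, 131.1 and 113 at 0 h, 217.4 and 281.6 at 6 h, 235.2, 375.4 and 183.7 at 14 h and 302.9, 176 and 295.3 at 22 h. In fasted livers it was 220.9, 461.7 and 119 CPM at 6 h, 1537, 818.6 and 1827 CPM at 14 h and 5064, 4046 and 441.5 CPM at 22 h. The fasted and AL libraries overlapped at 6 h, and all fasted libraries were above all AL libraries at 14 and at 22 h. At 22 h, F replicate 3 stood far below replicates 1 and 2. Apoa4 rose by 2.40 ± 0.82 (adjusted p = 0.0323, edgeR quasi-likelihood test) at 14 h and by 3.62 ± 0.87 (adjusted p = 0.0067) at 22 h, 5.265-fold and 12.34-fold. The 14 h call was lost without AL 14 h replicate 1 or 3 or F 14 h replicate 1 or 3 (adjusted p up to 0.127), and the 22 h call was kept in every alternative run, with log2 fold changes from 3.07 to 4.15. Apoa4 was the only 1 of the 10 that changed with time within fasted livers (adjusted p = 0.0421 by edgeR, against 2.86% of all genes). That call was lost in 6 of the 9 fits that left out 1 fasted library: each of the 3 at 6 h, F 14 h replicate 3 and F 22 h replicates 1 and 2. The difference of its fasting effect over time was not called (adjusted p = 0.46 by edgeR). The 4 intestinal markers together ran from 38.96 to 159 CPM in fasted and from 28.21 to 117.9 CPM in AL livers, nearly all of it Fabp2, while Lct and Sis were at or near 0.

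Apoc1 and Apoc3, which restrain lipolysis and uptake of lipoproteins, were lower in fasted livers at 14 h. Apoc3 stood at 3559, 1796 and 2401 CPM in AL and at 1165, 960 and 1192 CPM in fasted livers at 14 h, and Apoc1 at 3204, 1547 and 3453 CPM in AL and at 1397, 1161 and 1069 CPM in fasted livers. All fasted libraries were below all AL libraries for both genes. Apoc3 fell by 1.23 ± 0.27 (log2, adjusted p = 0.0017) and Apoc1 by 1.18 ± 0.39 (adjusted p = 0.0276, edgeR quasi-likelihood test). Both have short transcripts, of 709 and 532 bases. With the length trend removed, the log2 fold change of Apoc3 was -0.25 (adjusted p = 0.581) and that of Apoc1 was 0.03 (adjusted p = 0.926), so neither was called and Apoc1 changed sign. Apoc1 was also not called at 14 h without AL 14 h replicate 1 or 3 or any 1 of the 3 fasted libraries, while Apoc3 was called in all 6 of these fits. In the mean of the 3 times Apoc3 fell by 0.75 ± 0.16 (adjusted p = 0.000543) and Apoc1 by 0.61 ± 0.23 (adjusted p = 0.0391 by edgeR), and with the length trend removed these were -0.09 (adjusted p = 0.744) and 0.18 (adjusted p = 0.216). The mean call of Apoc1 was kept in 6 of 17 fits that left out 1 library, and lost without AL 6 h replicate 2, F 6 h replicate 1 or 2, AL 14 h replicate 1 or 3, F 14 h replicate 2 or 3, AL 22 h replicate 1 or 3, or F 22 h replicate 1 or 2. At 22 h Apoc3 was 1177, 1206 and 1294 CPM in fasted and 2126, 1858 and 1901 CPM in AL livers, with no overlap, at -0.68 ± 0.27 (adjusted p = 0.0959 by edgeR).

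**Figure D2:**
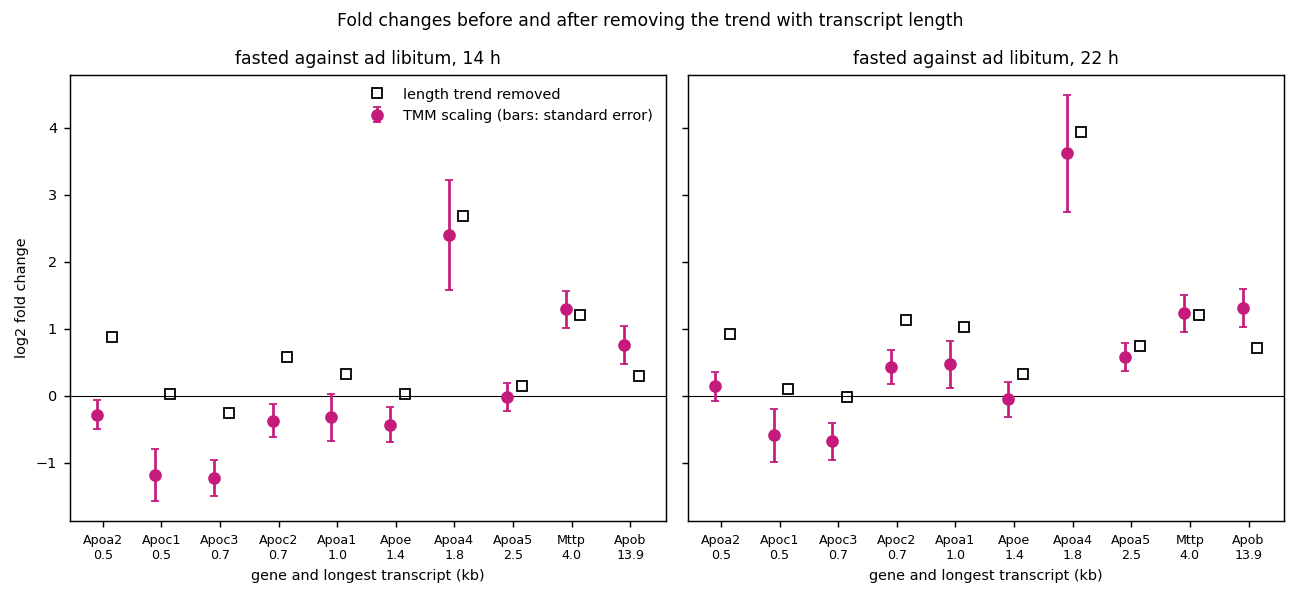
log2 fold changes of the 10 genes between fasted and AL livers at 14 h and 22 h (y axis), ordered by longest transcript (x axis, kb); filled circles are the TMM-scaled fit with standard errors and open squares the fit with the length trend removed. Apoa4 and Mttp sit near the same value in both fits, while Apob moves from 1.31 to 0.71 at 22 h and Apoc1 from -1.18 to 0.03 at 14 h.

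Of the HDL genes, the genes that promote lipoprotein lipase and Apoe, Apoa5 was called between fasted and AL livers, over the 3 times. Apoa5, which promotes triglyceride clearance by lipoprotein lipase, stood at 1774, 2044 and 1776 CPM in fasted and 1344 and 1114 CPM in AL livers at 6 h, and at 2351, 1931 and 1874 against 1497, 1094 and 1516 CPM at 22 h. The groups did not overlap at these 2 times, and at 14 h they did (1684, 1315 and 1391 against 1770, 1258 and 1412 CPM). Over the 3 times Apoa5 rose by 0.39 ± 0.13 (adjusted p = 0.0155 by edgeR's quasi-likelihood test), a call lost without AL 6 h replicate 2 (adjusted p 0.0624). At 22 h alone the log2 fold change was 0.58 ± 0.21 (adjusted p = 0.0628), not called by edgeR with TMM but called with the length trend removed (0.75, adjusted p = 0.0212), by DESeq2 (adjusted p = 0.0182), by limma (adjusted p = 0.0429) and without the 5 libraries (adjusted p = 0.0475). Apoa1, the main HDL protein, was 7690, 4397 and 9138 CPM in AL and 12420, 10580 and 6301 CPM in fasted livers at 22 h (0.47 ± 0.35, adjusted p = 0.406 by edgeR); with the length trend removed its log2 fold change was 1.02 (adjusted p = 0.0406) at 22 h and 0.56 (adjusted p = 0.026) over the 3 times. Apoc2, the cofactor of lipoprotein lipase, was 149, 199.6 and 137.1 CPM in fasted and 144.2, 94.32 and 121.7 CPM in AL livers at 22 h, overlapping, at 0.43 ± 0.25 (adjusted p = 0.27 by edgeR). With the length trend removed Apoc2 was called, at 1.13 (adjusted p = 0.0149) at 22 h and 0.75 (adjusted p = 0.00172) over the 3 times. Apoe, the ligand of remnant receptors, was 15710, 15960 and 14610 CPM in fasted and 19850, 22400 and 20010 CPM in AL livers at 14 h, without overlap, at -0.43 ± 0.26 (adjusted p = 0.233 by edgeR). Apoa2, the second HDL protein, and Apoe were not called in any of the 20 tests; their log2 fold changes between fasted and AL livers at 22 h were 0.14 ± 0.22 and -0.05 ± 0.26. With the length trend removed, Apoa2 was called higher in fasted livers at 14 h (0.88, adjusted p = 0.0437) and over the 3 times (0.84, adjusted p = 0.00087), so whether these short transcripts differ between fasted and AL livers depends on that setting.

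Calorie restriction against AL gave few calls at matched times. None of the 10 genes was called at 0, 6, 14 or 22 h by edgeR's quasi-likelihood test, where the genes called higher and lower over all genes were 0.21% and 0.268% at 0 h, 0% and 0% at 6 h, 0.00725% and 0.0145% at 14 h and 2.57% and 2.31% at 22 h. An unadjusted p under 0.05 was found for 1, 0, 1 and 2 of the 10 genes at these times. DESeq2 called 1 (Apoc2) at 0 h and 1 (Apob) at 22 h, the fit without the 5 libraries named above called the same number, and limma called 0 at each time. Over all genes DESeq2 called 245 of 12704 at 0 h and 1131 of 12704 at 22 h. The fit without the 5 libraries called 423 of 13690 and 2095 of 13690 at these 2 times. Apoc2 was 174.5 and 231.2 CPM in CR and 87.4, 76.76 and 138.7 CPM in AL livers at 0 h. It did not overlap, which between so few libraries can arise by chance. Its log2 fold change was 1.01 ± 0.27 (adjusted p = 0.0943 by edgeR), and 1.31 (adjusted p = 0.0121) without the 5 libraries. Apob at 22 h was 4097, 2482, 2453 and 2655 CPM in CR and 1380, 2031 and 1797 CPM in AL livers, also with no overlap, at 0.75 ± 0.27 (adjusted p = 0.0923 by edgeR). It was at 0.83 (adjusted p = 0.034) without the 5 libraries and at 0.47 (adjusted p = 0.278) with the length trend removed. Markers of other cells moved as well. At 22 h 3 of 8 Kupffer cell markers were called lower in CR livers (median log2 fold change -1.06). At that time 1 of 2 intestinal markers tested was called higher, and over the 4 times 1 of 8 endothelial markers. Their part in the results was not tested.

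Over the 4 times Apoc2 rose in CR livers by 0.45 ± 0.13 (adjusted p = 0.0427 by edgeR's quasi-likelihood test), the 1 gene of the 10 called higher beside 2.05% of all genes; 0 were called lower beside 2.35%. This call was kept in 8 of the 23 fits that left out 1 library. It was lost without AL 0 h replicate 1 or 2, CR 0 h replicate 1 or 2, AL 6 h replicate 1 or 2, CR 6 h replicate 1, AL 14 h replicate 1 or 2, CR 14 h replicate 1 or 2, AL 22 h replicate 2 or 3, or CR 22 h replicate 2 or 4. Without the 5 libraries, 5 genes were called: Apoc2 (0.59, adjusted p = 0.00238), Apob (0.57, adjusted p = 0.00838) and Mttp (0.40, adjusted p = 0.0423) higher, and Apoa1 (-0.61, adjusted p = 0.0166) and Apoc3 (-0.46, adjusted p = 0.0306) lower. Over all genes that fit called 2987 of 13690, against 607 of 13786 in the main fit. Those libraries were chosen from the data for their likeness to another diet, so these values are given beside the others and not in their place. With all libraries kept and the length trend removed, Apoc2 was called (0.67, adjusted p = 0.00956 by edgeR). Apob (0.36, adjusted p = 0.132), Mttp (0.26, adjusted p = 0.307), Apoa1 (-0.31, adjusted p = 0.275) and Apoc3 (-0.17, adjusted p = 0.536) were not. Within CR livers Apoc2 changed with time (adjusted p = 0.0418 by edgeR, against 20.6% of all genes), from 202.8 ± 40.09 CPM (SD, n = 2) at 0 h to 100.6 ± 22.3 (n = 3) at 6 h, 154.5 ± 16.19 (n = 3) at 14 h and 156.9 ± 41.49 (n = 4) at 22 h. That call was lost without either CR 0 h replicate, without CR 14 h replicate 2, with the length trend removed (adjusted p = 0.284), in the CR libraries alone (adjusted p = 0.131) and without the 5 libraries (adjusted p = 0.0667). Within AL livers 0 of the 10 genes changed with time (0.276% of all genes; unadjusted p under 0.05 for 4, and 1 call, Apoa1, by DESeq2). The highest AL levels of Apoa1 were at 14 h (7826, 11240 and 9715 CPM, against 3136, 4430 and 3690 CPM at 0 h). The effects of fasting and of CR were not called as changing over time for any of the 10 (0.0653% and 0.442% of all genes; unadjusted p under 0.05 for 1 and 0, and 0 calls by DESeq2 and by limma).

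Calorie-restricted livers had lower levels of several of these genes than fasted livers of the same time. At 6 h Apoa5 was called lower and 0 higher (3.41% of all genes lower, 3.39% higher). At 14 h Mttp was called lower and 0 higher (7.97% and 9.1%). At 22 h Apoa1 and Apoa4 were called lower and 0 higher (4.32% and 5.13%). Over the 3 times 4 genes were called lower (Apoa1, Apoa4, Apoa5 and Mttp) and 0 higher, against 13.3% and 15.9% of all genes. Apoc3 was at 0.34 ± 0.15 over the 3 times (adjusted p = 0.0877 by edgeR) and was called higher in CR livers in the fit to the compared libraries alone (adjusted p = 0.0356), while with the length trend removed it was at -0.04. Markers of other cells moved in the same comparison. In the mean of the times, 3 of 8 Kupffer cell markers and 2 of 8 endothelial markers were called lower in CR livers and 3 of 6 cholangiocyte markers higher. Summed levels over the libraries of all times ran from 108.4 to 299.4 CPM in CR and 193.5 to 370.4 CPM in fasted livers for Kupffer cells, and from 17.83 to 86.01 against 15.5 to 29 CPM for cholangiocytes. At 14 h, 2 of 8 endothelial markers were called lower. Their part in the results was not tested. These comparisons share the fasted libraries with those against AL, so the 2 are not independent.

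Apoa4 stood at 522, 737.8, 144 and 83.78 CPM in CR livers at 22 h. Replicates 1 and 2 were above the lowest fasted library (441.5 CPM), so the groups overlapped. It fell by 3.10 ± 0.76 (adjusted p = 0.00845 by edgeR's quasi-likelihood test) relative to fasted livers, a call lost without F 22 h replicate 1 and in the fit to the compared libraries alone. At 14 h it was 405.4, 479 and 107.8 CPM in CR, all below the fasted libraries, at -2.08 ± 0.81 (adjusted p = 0.0756 by edgeR); it was called by DESeq2 (adjusted p = 0.0321) and in the fit to the compared libraries alone (adjusted p = 0.0323), and not by limma (adjusted p = 0.0549) or without the 5 libraries (adjusted p = 0.2). Mttp at 14 h was 291.9, 252.7 and 162.2 CPM in CR against 577.9, 484.7 and 538.2 CPM in fasted livers and fell by 1.18 ± 0.28 (adjusted p = 0.00418), a call kept in every alternative run. Apoa5 at 6 h was 814.8, 1249 and 1007 CPM in CR, all below the fasted libraries, and fell by 0.87 ± 0.21 (adjusted p = 0.00957); the call was lost without CR 6 h replicate 1 or F 6 h replicate 2. Apoa1 at 22 h was 3535, 5487, 4915 and 4531 CPM in CR, all below the fasted 6301 to 12420 CPM, and fell by 1.08 ± 0.32 (adjusted p = 0.0302 by edgeR); the call was lost in the fit to the compared libraries alone and without CR 22 h replicate 1 or F 22 h replicate 1 or 2. Over the 3 times the 4 genes fell by 1.62 ± 0.45 (Apoa4, adjusted p = 0.00721), 0.68 ± 0.20 (Apoa1, adjusted p = 0.0101), 0.65 ± 0.16 (Mttp, adjusted p = 0.00223) and 0.39 ± 0.12 (Apoa5, adjusted p = 0.0117). Without the 5 libraries the value of Apoa5 was -0.33 (adjusted p = 0.0516) and the other 3 were still called. With the length trend removed all 4 were still called, and Apoa2 was called lower as well (-0.59, adjusted p = 0.0102 by edgeR).

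**Figure D3:**
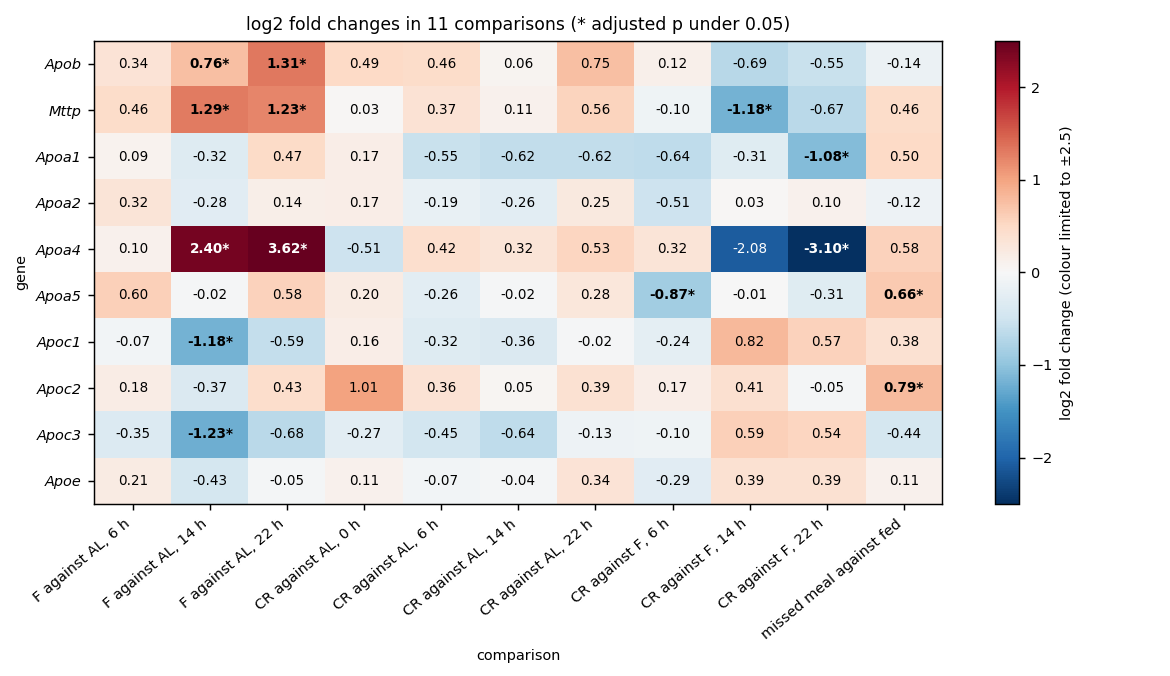
log2 fold changes of the 10 genes (rows) in 11 comparisons between groups (columns), with a star for an adjusted p under 0.05 by edgeR. Stars fall on Apoa4, Apob and Mttp in fasted against AL livers at 14 and 22 h, and on none of the 4 columns that compare CR with AL.

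Under CR, the missed meal was followed by higher Apoa5 and Apoc2 than feeding. Both products act with lipoprotein lipase. Apoa5 was 2771, 2487 and 2219 CPM after the missed meal and 1821, 1472 and 1428 CPM in fed CR livers, and Apoc2 was 421.1, 248 and 242.2 CPM against 203.5, 143.1 and 181.7 CPM. For both, every library after the missed meal was above every fed library. Apoa5 rose by 0.66 ± 0.21 (1.584-fold, adjusted p = 0.0327) and Apoc2 by 0.79 ± 0.25 (1.725-fold, adjusted p = 0.0356, edgeR quasi-likelihood test), so 2 of the 10 were higher and 0 lower beside 6.34% and 6.13% of all genes. Both calls depended on single libraries. That of Apoa5 was lost without CR fed replicate 2 or 3, without any 1 of the 3 missed-meal libraries, without the filter on low counts and without the 5 libraries (0.58, adjusted p = 0.103). That of Apoc2 was lost without any 1 of the 3 fed libraries, without missed-meal replicate 1, with the length trend removed (0.75, adjusted p = 0.082) and in the fit to the compared libraries alone. Erythroid markers moved in the same comparison: all 4 (Hba-a1, Hbb-bs, Hbb-bt and Alas2) were called higher after the missed meal, with sums of 3428 to 10740 CPM against 622.9 to 1550 CPM, and endothelial markers were called higher for 3 of 8 (sums of 221.2 to 254.9 against 139.5 to 165.4 CPM). Their part in the results was not tested.

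The genes that moved most in fasted livers did not pass the test after the missed meal. Apoa4 was 1764, 241.6 and 207.2 CPM after the missed meal and 735.3, 535.9 and 207 CPM in fed CR livers, overlapping, at 0.58 ± 0.78 (adjusted p = 0.698). Apob was 2011, 2411 and 1778 CPM against 2408, 2755 and 1657 CPM (-0.14 ± 0.28, adjusted p = 0.812). Mttp was 488.9, 372.7 and 368.9 CPM against 321, 325.9 and 249.9 CPM, without overlap, at 0.46 ± 0.28 (adjusted p = 0.308, edgeR quasi-likelihood test). The missed-meal effect was measured under CR at ZT18 and the fasting effect against AL at 22 h, so diet and sampling time may differ between them as well. The difference between the missed-meal effect and the fasting effect at 22 h was tested as such, and 0 of the 10 genes were called (0.421% of all genes higher, 0.464% lower; unadjusted p under 0.05 for 2). That difference was -1.44 ± 0.40 for Apob (adjusted p = 0.0691 by edgeR) and -3.04 ± 1.13 for Apoa4 (adjusted p = 0.184). For Apob it was called by DESeq2 (-1.47, adjusted p = 0.0126) and without the 5 libraries (-1.66, adjusted p = 0.0177), and not with the length trend removed (-1.02, adjusted p = 0.18) or by limma (-1.17, adjusted p = 0.151).

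The clusters put genes that were called beside genes that were not. On chromosome 9 in fasted against AL livers at 22 h, Apoa4 rose, while Apoc3 next to it was at -0.68 ± 0.27, Apoa1 at 0.47 ± 0.35 and Apoa5 at 0.58 ± 0.21, none of them called by edgeR. On chromosome 7 after the missed meal, Apoc2 rose, while Apoc4 was at 0.27 ± 0.34 (adjusted p = 0.664), Apoc1 at 0.38 ± 0.39 and Apoe at 0.11 ± 0.26, none of them called. Differences between neighbours were not tested. Within groups over the 38 libraries, Apoa4 followed Mttp (Pearson r 0.84) and Apob followed Mttp (0.77), while Apob and Apoc1 went in opposite directions (-0.72). These are descriptions over libraries that share scaling and the trend with transcript length.

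**Figure D4:**
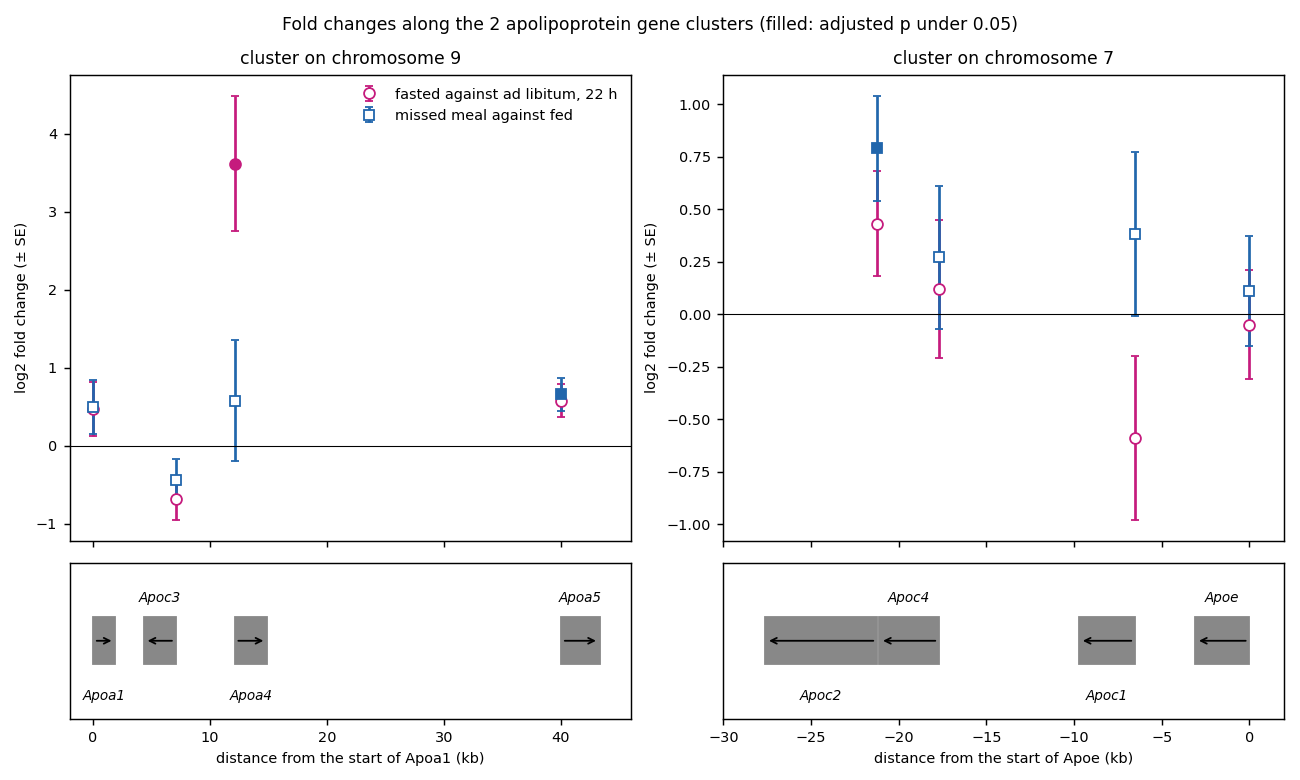
log2 fold changes (y axis, ± SE) of the genes in the clusters of chromosomes 9 and 7 against the distance of their start sites from Apoa1 or Apoe (x axis, kb), with gene bodies and direction of transcription drawn to scale below. Circles compare fasted with AL livers at 22 h and squares the missed meal with feeding; Apoa4 stands at 3.62 among neighbours between -0.68 and 0.58.

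By mean log2 CPM over the 13 groups, the 3 genes most like Mttp among 8846 candidates were Abcd3 (Pearson r 0.95), a peroxisomal fatty acid transporter, Rab6a (0.95), a GTPase of Golgi transport, and Kif21a (0.94), a kinesin. Those most like Apoa4 were Gtdc1 (0.93), Ginm1 (0.91) and Aadat (0.88), and those most like Apob included Cpd (0.92) and Abca5 (0.91). Apoc1 was most like Atp5j (0.97), Tomm7 (0.97) and Mrpl28 (0.96), which encode mitochondrial proteins. For Apoc2 the most alike were Rbp4 (0.91), the plasma retinol carrier, Etfa (0.90) and Gstt2 (0.90), and for Apoe Fuca1 (0.94), Cox6a1 (0.94) and Imp3 (0.92). Within groups the r with these genes was 0.92, 0.89 and 0.84 for Apoc1. It was 0.72, 0.52 and 0.36 for Apoc2 and 0.75, 0.40 and 0.44 for Apoe. For Mttp it was 0.72, 0.74 and 0.78, for Apoa4 0.52, 0.45 and 0.66, and for Apob 0.60 and 0.71. Apoc1 also went against each library's trend with transcript length within groups (Pearson r -0.70). The part of that trend in these values was not tested.

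Other genes of the pathway were read from 5 lists, beside the shares of all genes called (16.8% higher and 17.9% lower in fasted than AL livers over the 3 times). Calls and values of the list genes, here and below, are from the main fit only. Fold changes over all genes rose with transcript length in this comparison (Spearman's rho 0.402). How the list calls depend on that trend or on single libraries was not tested. Of 29 genes that help to assemble or secrete VLDL, 7 rose and 5 fell with fasting, against AL, over the 3 times (list median log2 fold change -0.07, all genes -0.03). Sec23a, a coat protein of vesicles that leave the endoplasmic reticulum, rose by 1.01 ± 0.14 (adjusted p = 2.68e-06). A1cf, the cofactor of Apob messenger RNA editing, rose by 0.76 ± 0.20 (adjusted p = 0.00371), and Pemt, which makes phosphatidylcholine for VLDL, fell by 0.84 ± 0.10 (adjusted p = 3.36e-07, edgeR quasi-likelihood test). In the same list CR livers were called higher than fasted livers for 6 genes and lower for 4 (15.9% and 13.3% of all genes), with Soat2, which esterifies cholesterol, at 0.99 ± 0.15 (adjusted p = 1.18e-05) and Pemt at 0.86 ± 0.10 (adjusted p = 8.56e-08). After the missed meal 3 were higher (Sec23a at 0.88 ± 0.23, A1cf at 1.24 ± 0.33 and Ces1d, a lipid hydrolase, at 0.86 ± 0.29) and 0 lower (6.34% and 6.13% of all genes).

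Of 11 lipases and remodelling factors, 2 rose and 3 fell with fasting, against AL, over the 3 times, beside 16.8% and 17.9% of all genes. Angptl4, which inhibits lipoprotein lipase, rose by 2.34 ± 0.31 (adjusted p = 1.55e-06), while Angptl8 fell by 3.34 ± 0.44 (adjusted p = 9.5e-07) and Pltp, a phospholipid transfer protein, by 1.42 ± 0.31 (adjusted p = 0.000572, edgeR quasi-likelihood test). After the missed meal the changes of Angptl4 and Angptl8 were 3.19 ± 0.53 and -3.78 ± 0.75. Of 15 receptors and efflux genes tested, 3 were called higher after fasting and 3 lower, beside the same shares of all genes. Mylip, a ubiquitin ligase that directs the LDL receptor to degradation, rose by 1.19 ± 0.18 (adjusted p = 1.01e-05) and Lsr, a lipoprotein receptor, fell by 0.95 ± 0.17 (adjusted p = 5.26e-05, edgeR quasi-likelihood test). Of 16 other apolipoproteins tested, 1 was higher and 5 lower, again beside 16.8% and 17.9%, led by Apol7a (-1.28 ± 0.20), Apol9a (-1.12 ± 0.21) and Apol9b (-1.01 ± 0.21), close relatives whose reads may be shared.

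Of 33 regulators, 8 rose and 10 fell with fasting, against AL, over the 3 times, beside 16.8% and 17.9% of all genes. Srebf1, the driver of lipid synthesis genes, fell by 2.71 ± 0.24 (adjusted p = 1.49e-09) and Mlxipl, its carbohydrate-responsive counterpart, by 1.47 ± 0.30 (adjusted p = 0.000316), while Ppara, the fatty acid receptor, rose by 1.33 ± 0.21 (adjusted p = 1.24e-05, edgeR quasi-likelihood test). Creb3l3, a liver transcription factor known to act on Apoa4, Apoa5 and Apoc2, rose by 0.88 ± 0.12 over the 3 times (adjusted p = 2.88e-06), fell by 1.00 ± 0.12 in CR relative to fasted livers (adjusted p = 1.48e-07) and rose by 0.94 ± 0.21 after the missed meal (adjusted p = 0.00277). Whether these changes bear on the apolipoprotein genes was not tested. In CR against AL livers over the 4 times, where 2.05% of all genes were called higher and 2.35% lower, the calls were 2 of 29, 1 of 11, 1 of 15 and 4 of 33 in the lists of VLDL partners, lipases, receptors and regulators. In the list of other apolipoproteins they were 6 of 16, all 6 lower, with Apol9a at -0.90 ± 0.18 and Apon at -0.65 ± 0.15.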

How the data were processed

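Per the labels' protocols, RNA of liver was made into non-directional, polyadenylated libraries and sequenced as paired reads. The authors aligned them with Bowtie to protein-coding genes of Ensembl GRCm38 and deposited expected counts from RSEM 1.2.3. Their other deposited table is a signal: TPM rescaled with EBSeq by the authors against a possible batch effect. No batch is named in the labels, and the column sums differ (817166 to 1319582). Expected counts were rounded. All 38 libraries entered 1 edgeR 4.0.16 model (R 4.3.3) of 13 groups with filterByExpr, TMM and the quasi-likelihood F test; p-values were adjusted within each of 20 tests. A standard error is the size of the log2 fold change over the root of its F statistic. Alternatives used DESeq2 1.42.0, limma 3.58.1 (log2 of rescaled TPM plus 1, mean of at least 1), offsets that remove a lowess trend (span 0.3) with the longest transcript of each gene, a replicate block, no filter, the compared libraries alone and single libraries left out. Leaving out 5 libraries was chosen after seeing the data. The test was checked on simulated counts with the same dispersion for all genes and no trend with transcript length. No library was made to stand apart, so the check does not cover these features of the data. Members and lists were chosen with earlier results of these data known. Named genes are the 10 members, up to 3 called genes per list and comparison with the largest fold change and at least 5 CPM in a group, a few list genes given as background, and per member the 3 genes with the highest correlation over the 13 groups (at least 5 CPM, without unnamed models and Mup genes). Replicate numbers correlated at 0.14 to 0.2 in all 3 pairs of the missed-meal comparison, and not above 0.1 in every pair elsewhere; the numbering comes from the labels. The labels mention no molecular identifiers. Some genes that the rule names are not reported here.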

Additional observations from a re-analysis of the deposited data

Results flagged for a closer look

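Apob in CR livers at 22 h had 1 library that stands apart: replicate 1 stood at 4097 CPM and the other 3 at 2482, 2453 and 2655 CPM. The gap to the nearest library was 0.877 of the whole range, above Dixon's critical value for 4 libraries. CR at 22 h was the only group with 4 libraries, so each of the 10 genes was looked at once. For each gene chance gives such a gap in about 1 of 20, so a single gap among 10 genes can arise by chance.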

How the results depend on the processing

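Of 25 called fold changes, DESeq2 size factors and the DESeq2 test kept 25, the replicate block 24, no filter 23, leaving out the 5 libraries 23, limma on rescaled TPM 22, the compared libraries alone 21 and removal of the length trend 17. Leaving out 1 library kept 230 of 287. Removing the length trend reversed Apoc1 in fasted against AL livers at 14 h (0.03) and over the 3 times (0.18), and limma reversed Apob at 14 h (-0.24); the cause was not tested. Moves in the number of the 10 genes called, the cause not tested, were these.

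Fasted against AL gave 5 at 14 h and 3 with the length trend removed, and 3 at 22 h, with 5 with the length trend removed and 4 by DESeq2, under the block, in the libraries alone and without the 5 libraries. At 14 h it also gave 4 without a filter and by limma, and over the 3 times 6, with 5 by limma. CR against AL gave 0 at 0 h and 1 by DESeq2 and without the 5 libraries, and 0 at 22 h and 1 under the same settings; over the 4 times it gave 1, with 0 in the libraries alone, 2 by DESeq2 and 5 without the 5 libraries. CR against fasted gave 1 at 14 h, with 3 under the replicate block, 2 in the libraries alone and 2 by DESeq2, and 2 at 22 h, with 0 in the libraries alone. Over the 3 times it gave 4, with 6 under the block, 5 with the length trend removed and in the libraries alone, and 3 without the 5 libraries. The missed meal gave 2, with 1 without a filter, with the length trend removed, in the libraries alone and without the 5 libraries. Time in AL gave 0 and 1 by DESeq2. Time in CR gave 1, with 0 with the length trend removed, in the libraries alone and without the 5 libraries, 2 by limma and 3 by DESeq2. Time in fasted livers gave 1, with 2 in the libraries alone and by DESeq2. The missed-meal effect minus the fasting effect gave 0, with 1 under the replicate block, by DESeq2 and without the 5 libraries. Whether the numbers pair samples is not stated in the labels. In the missed-meal comparison, where libraries of the same number correlated at 0.14 to 0.2, the block kept both calls (edgeR, Apoa5 adjusted p 0.0233, Apoc2 0.0385). In CR against fasted livers at 22 h these correlations were also positive (0.03 to 0.17). For the comparisons other than the missed meal, the samples likewise share a number. There the block called Apoa4 (-2.54, adjusted p 0.00715) and Apob (-0.74, adjusted p 0.0332) in CR against fasted livers at 14 h, Apob (-0.38, adjusted p 0.0393) and Apoc3 (0.38, adjusted p 0.0471) in the same comparison over the times, Apoa5 in fasted against AL livers at 22 h (0.58, adjusted p 0.0489), Apob in CR against AL over the times (0.43, adjusted p 0.0468) and Apob in the missed-meal effect minus the fasting effect (-1.37, adjusted p 0.0387). With time in CR it called Apoa5 (adjusted p 0.0361) and not Apoc2 (adjusted p 0.0528), and it lost Apoc2 in CR against AL over the times (0.44, adjusted p 0.0552).

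With 1 library left out, the counts ran from 2 to 5 (fasted against AL, 14 h), 2 to 3 (22 h) and 4 to 6 (over the times), 0 to 1 (CR against AL, 0 h) and 0 to 2 (over the times), 0 to 1, 1 to 2, 0 to 3 and 4 to 5 (CR against fasted at 6, 14 and 22 h and over the times), 0 to 1 (missed meal), 0 to 2 (time in CR), 0 to 1 (time in fasted livers) and 0 to 1 (missed-meal effect minus fasting effect). Counts over all genes that moved by more than 1.5 times were as follows. CR against AL at 0 h gave 66 calls, with 245 by DESeq2, 16 in the libraries alone, 100 with the length trend removed, 172 under the block and 423 without the 5 libraries. At 6 h it gave 0, with 10, 9, 0, 3 and 108 (3 without a filter, 4 by limma). At 14 h it gave 3, with 68, 1, 0, 14 and 656. At 22 h it gave 673, with 1131 by DESeq2, 83 alone and 2095 without the 5. Over the times it gave 607, with 954, 257 and 2987. Fasted against AL at 6 h gave 322, with 569 by DESeq2, 828 alone, 581 under the block and 545 without the 5, and at 22 h 1581, with 1046 with the length trend removed. CR against fasted gave 2354 at 14 h and 1357 alone, and 1302 at 22 h, with 260 alone and 2025 without the 5. Time in AL gave 38, with 202 by DESeq2 and 2 alone, time in CR 2839 and 1124 alone, and time in fasted livers 394, with 763 by DESeq2, 707 alone and 738 without the 5. The fasting effect over time gave 9, with 86 by DESeq2, 5 alone, 1 with the length trend removed, 2 by limma and 33 without the 5. The CR effect over time gave 61, with 315 by DESeq2, 13 alone and 476 without the 5. The missed-meal effect minus the fasting effect gave 122, with 390 by DESeq2, 75 without a filter, 238 under the block and 628 without the 5.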
